A study of Mus musculus with 6 samples.

Results

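The genes studied here encode the machinery of oxidative phosphorylation: the nuclear subunits of the respiratory chain complexes I to IV, cytochrome c, the ATP synthase (complex V), and the assembly factors of complex I that carry its gene prefix. Members were all probe sets annotated to exactly 1 gene symbol beginning with Nduf, Uqcr, Cox4i, Cox5, Cox6, Cox7, Cox8 or Atp5, together with Sdha to Sdhd, Cyc1 and Cycs, with the brightest probe set over the 6 arrays kept for each gene. The rule used names only, and it gave 92 of the 18193 measured genes: 81 structural subunits (34 of complex I, 4 of complex II, 9 of complex III, 17 of complex IV and 17 of complex V), Cycs, 8 complex I assembly factors, the supercomplex factor Cox7a2l and the Ndufa4 paralog Ndufa4l2. No filter on low values was applied, so all 92 entered the fit.

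Hearts of 9-month-old mice were compared on Affymetrix arrays, with 1 array per heart. The 3 GRK2+/- mice were heterozygous for the targeted Adrbk1tm1Mca allele, a germline disruption of the gene of G protein-coupled receptor kinase 2, bred onto C57BL/6J over many generations. The 3 controls were wild-type C57BL/6J mice. Both groups were untreated and of the same age, and the piece analysed was the upper part of the heart, taken after arrest with potassium chloride. The allele is carried by every cell of the animal, so no cell type is singled out. The labels number the hearts within each group and do not give litters or batches. The p-values concern these hearts only, and their errors are moderated by the spread of all genes.

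In the respiratory chain, complexes I and II pass electrons from NADH and succinate to ubiquinone, complex III passes them on to cytochrome c, and complex IV reduces oxygen. Complexes I, III and IV pump protons, and the ATP synthase uses the resulting gradient to make ATP. Cardiac muscle depends on this pathway for nearly all of its ATP and is packed with mitochondria. Most subunits are encoded in the nucleus, where nuclear respiratory factor 1 (Nrf1), the ETS factor Gabpa, Yy1 and the estrogen-related receptors, together with coactivators of the PGC-1 family, are known to drive their transcription.

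The arrays were alike in their overall level, with medians from 6.25 to 6.31 on the log2 scale and correlations over probe sets from 0.9962 to 0.9966 within groups and from 0.9936 to 0.9967 between groups. All 8 cardiomyocyte markers lay at 12.8 or above. Their summed levels ranged from 115.5 to 115.9 in GRK2+/- and from 114.9 to 115.3 in wild-type hearts, without overlap. Their median difference (GRK2+/- minus wild type, log2) was 0.0015, and 1 of them, Ryr2 (0.35), had an unadjusted p under 0.05. Of 5 atrial markers, Nppa alone lay above the median gene, at 9.97 in GRK2+/- and 11.17 in wild-type hearts, and others were dim (Myl7 5.61 in GRK2+/- and 5.50 in wild-type hearts, Sln 5.71 and 5.65), while the ventricular light chain Myl2 lay at 15.07 and 15.09. The summed levels of the 5 atrial markers ranged from 34.1 to 35.3 in GRK2+/- and from 35.5 to 35.8 in wild-type hearts. That list was split: Nppa (-1.20) and Bmp10 (-0.19) were lower, both with an unadjusted p under 0.05. Myl7, Sln and Myl4 were higher, by 0.11, 0.054 and 0.14, without such a p. Among markers of brown fat, another tissue rich in mitochondria, Ucp1 lay at 5.56 and 5.64 and Zic1 at 4.14 and 4.18, both well below the median gene (7.24). Of the 6 listed, 2 lay above it, Cidea at 10.03 in GRK2+/- and 10.05 in wild-type hearts and Cox8b at 14.13 and 14.19. The summed levels of the 6 brown fat markers, which include the member Cox8b, ranged from 42.8 to 43.2 in GRK2+/- and from 43.2 to 43.5 in wild-type hearts. Markers of other cell types were higher in part. The 4 epicardial and mesothelial markers all lay below the median gene, at 4.8 to 6.5. Their summed levels ranged from 23.8 to 24.5 in GRK2+/- and from 22.8 to 23.1 in wild-type hearts, and 3 of them had an unadjusted p under 0.05. Those of 5 fibroblast markers ranged from 49.7 to 50.3 and from 49.2 to 49.6, with 1 at such a p. Sums of 5 endothelial markers met at 46.5 (up to 46.9 in GRK2+/- and down to 45.4 in wild-type hearts), and those of 5 leukocyte markers overlapped, at 38.9 to 39.4 and 38.1 to 39.1, with 2 at such a p. Sums of 4 smooth muscle markers also overlapped, at 33.5 to 34.7 and 32.6 to 33.8, with 1 at such a p. The fibroblast, endothelial, leukocyte and smooth muscle lists were split too. Dcn (-0.044), Pecam1 (-0.12, without overlap), Cd68 (-0.073), Cd3e (-0.12) and Cnn1 (-0.13) were lower, without such a p, and the other markers of these lists were higher. The part of these cell types in the members' values was not tested. In tissue of this kind, fewer cells of a type and less RNA per cell cannot be told apart.

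Transcripts of the respiratory chain and the ATP synthase lay at nearly the same level in GRK2+/- and wild-type hearts. The median difference (GRK2+/- minus wild type, log2) was 0.0083 over the 81 structural subunits, of which 50 lay above 0 and 31 below, against a median of -0.019 over all genes. With limma, 0 of the 92 members passed an adjusted p of 0.05, the smallest adjusted p being 0.299. This is also the result for the whole table, where 0% of the 18193 genes passed and the smallest adjusted p was 0.0632. At an unadjusted p under 0.05 there was 1 member, Cox8c, or 1.09% of the 92, against 14% of all genes. By direction, 0 members were higher, against 6.3% of all genes, and 1 was lower, against 7.7%. These counts depend on the moderation. With a prior that followed the level, the median standard error of the members was 0.04 in place of 0.066. Then 3 members had an unadjusted p under 0.05 (Cox8c, Ndufa5 and Ndufaf8), against 14.3% of all genes.

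The differences of the members were small as well as uncalled. Of the 92, 85 differed by less than 0.1 on the log2 scale, and the 95% interval of 85 stayed within 1.2-fold in both directions. The exceptions were Ndufa5, Sdhc, Cox6a1 and Ndufaf8, whose intervals reached beyond 1.2-fold on the higher side, and Ndufb4, Cox7c and Cox8c, whose intervals did so on the lower side. The GRK2+/- and wild-type values did not overlap for 8 members, 2 higher (Ndufb8 and Atp5j2) and 6 lower (Ndufa8, Ndufa9, Sdhd, Uqcrfs1, Cox8c and Ndufaf1). That is 8.7% of the members, beside 19.1% of all genes (7.44% higher and 11.6% lower).

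**Figure D1:**
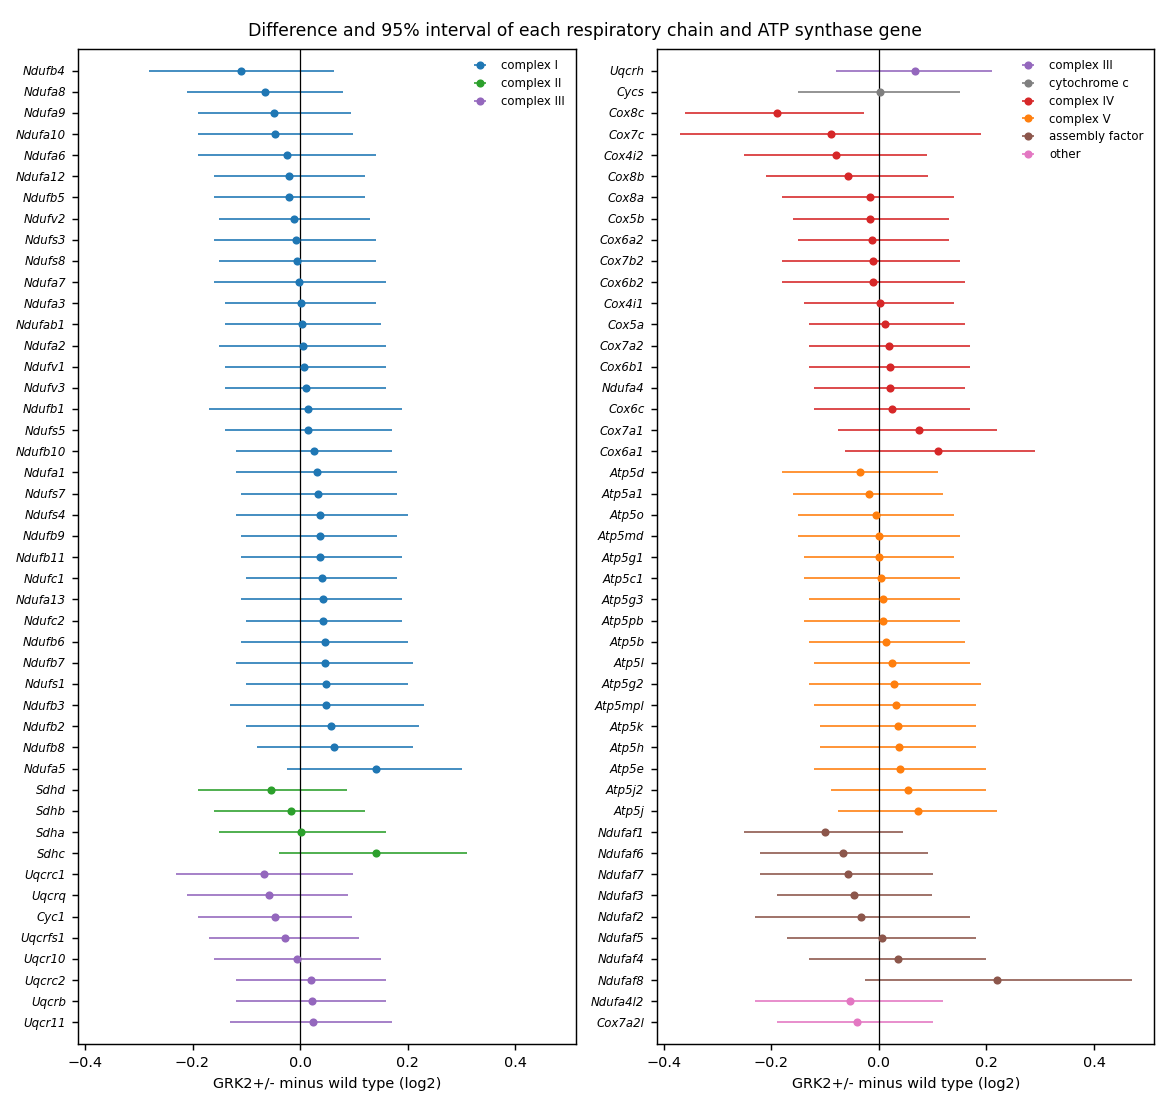
Difference between GRK2+/- and wild-type hearts (log2, horizontal axis) for each of the 92 genes, grouped by complex and ordered by difference within it. Points are limma estimates and bars 95% intervals (n = 3 hearts per group); only the interval of Cox8c lies wholly on one side of 0.

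Most members were bright on these arrays. Of the 92, 65 had a mean of 13 or more on a scale whose highest value was 15.1, and 0 of these 65 had an unadjusted p under 0.05, against 11 of the 151 other genes at that level (7.28%). The groups did not overlap for 6 of the 65 members and for 35 of the 151 other genes (23.2%). Among other genes at 14 or above, 0 of 32 had an unadjusted p under 0.05 and the median size of the difference was 0.024, whereas among those between 9 and 11 it was 0.083. For the 26 members at 14 or above the median size was 0.018. Between 13 and 14, where 39 members lay, other genes had a median size of 0.059, 9.24% with an unadjusted p under 0.05 and 27.7% without overlap. The 39 members there had a median size of 0.033, 0 with such a p and 5 without overlap. A probe set near the top of the scale can respond less than in proportion to its transcript, and the part of this in the small differences was not tested. At the other end, 4 members lay below the median gene. The probe sets kept for Cox7c (5.28 in GRK2+/- and 5.37 in wild-type hearts) and Ndufb4 (4.67 and 4.78) were dim although both genes encode subunits of the complexes in ordinary tissues, and Cox4i2 and Cox7b2 were the other 2. A brighter probe set shared by Ndufb4, Ndufb4b and Ndufb4c, which the rule left out, lay at 13.44 and 13.40 and differed by 0.032 ± 0.069 (SE, n = 3 per group, as for all errors of differences below).

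**Figure D2:**
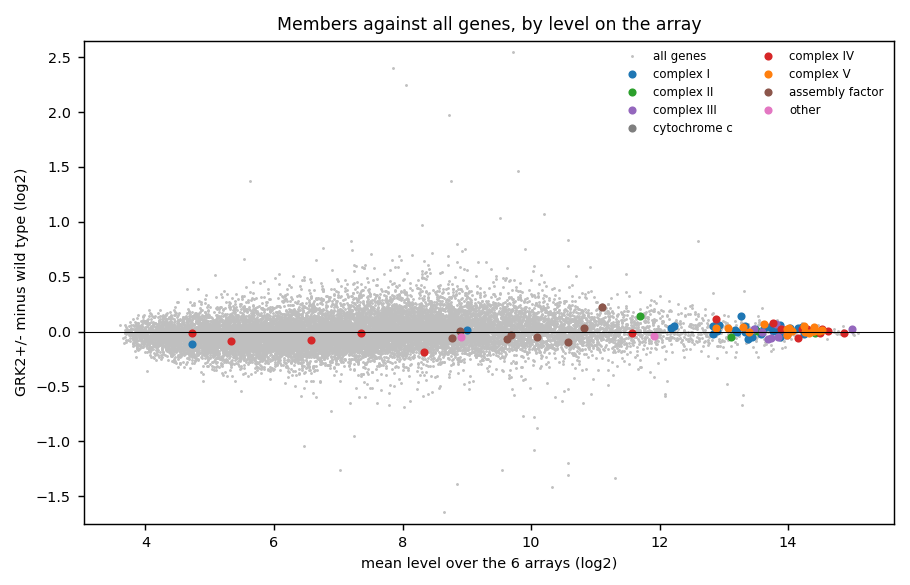
Difference between GRK2+/- and wild-type hearts (log2, vertical axis) against the mean level over the 6 arrays (log2, horizontal axis). Grey points are all 18193 genes and coloured points the 92 members, 65 of which have a mean of 13 or more; at that level members lie between -0.067 and 0.14 and other genes between -0.67 and 0.37.

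Among 15 regulators of these genes measured on the same arrays, the coactivator Ppargc1b had the smallest p. Ppargc1b, a PGC-1 coactivator, had levels of 10.81, 10.97 and 11.21 in GRK2+/- hearts and 10.27, 10.18 and 10.02 in wild-type hearts. Every GRK2+/- value lay above every wild-type value, a difference of 0.84 ± 0.11 or 1.79-fold (unadjusted p = 1.72e-05, adjusted p = 0.0632), from 1 probe set. The related Pprc1 differed by 0.30 ± 0.088 (adjusted p = 0.215), also without overlap. Ppargc1a differed by 0.0077 ± 0.11, Nrf1 by -0.079 ± 0.11, Gabpa by 0.12 ± 0.066, Yy1 by 0.21 ± 0.10 and Esrra by -0.0019 ± 0.076. Of the 15 regulators, 2 had an unadjusted p under 0.05, both higher, and 0 passed over all genes. That is 13.3% of the list against 14% of all genes, and the groups did not overlap for 20% of the list against 19.1% of all genes, so neither share stood above the background. The subunits these regulators are known to drive had a median difference of 0.0083.

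Promoters of 75 of the 92 members were held in the RefSeq table (GRCm38.p6), as 80 sequences running from 250 bases before to 50 after a start site. They were searched on both strands for GCATGCGC (the core bound by NRF1), CCGGAAG (ETS factors such as GABPA), AAGATGG (YY1), TGACCTT (estrogen-related receptors) and TATAAA (the TATA box). The NRF1 letters stood in 15% of the member promoters against 2.71% of all 32851 promoters of the table, the ETS letters in 23.8% against 8.86%, the YY1 letters in 13.8% against 6.34%, the receptor letters in 10% against 4.72%, and the TATA letters in 11.2% against 13.6%. Members with and without the NRF1 letters had median differences of 0.015 (12 genes) and 0.0075 (63 genes), and those with and without the ETS letters 0.024 (19 genes) and 0.0036 (56 genes). For the YY1 letters the medians were 0.036 (11 genes) and 0.0036 (64 genes), for the receptor letters 0.02 (8 genes) and 0.0044 (67 genes), and for the TATA letters 0.00042 (8 genes) and 0.008 (67 genes). The median was thus higher with the letters for 4 of the 5 motifs and lower for the TATA letters, and these gaps were not tested. A match describes the letters only and is not a site shown to be bound. The 170 bases before the start site are given for 5 members that stand for the patterns found, 5′ to 3′ on the gene's strand, with matches in capitals. Cycs has the NRF1 letters alone, Cox6a1 has 2 overlapping NRF1 matches on opposite strands and an ETS match, Sdhd and Ndufaf8 have an ETS match near the start, and the window of the muscle isoform Cox8b has none of the 5, although TATAAA stands elsewhere in its searched promoter. Outside the printed bases, Sdhd also has the receptor letters and Ndufaf8 the YY1 letters in the searched promoter.
Cycs, chr6:50566570-50566739, minus strand: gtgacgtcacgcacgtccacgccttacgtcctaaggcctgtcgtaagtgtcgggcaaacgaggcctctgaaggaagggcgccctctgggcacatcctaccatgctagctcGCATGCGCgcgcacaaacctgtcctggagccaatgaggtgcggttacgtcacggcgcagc
Cox6a1, chr5:115348959-115349128, minus strand: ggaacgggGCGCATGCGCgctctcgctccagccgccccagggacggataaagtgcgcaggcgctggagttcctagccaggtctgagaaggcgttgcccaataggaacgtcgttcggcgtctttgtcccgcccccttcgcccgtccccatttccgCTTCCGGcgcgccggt
Sdhd, chr9:50603850-50604019, minus strand: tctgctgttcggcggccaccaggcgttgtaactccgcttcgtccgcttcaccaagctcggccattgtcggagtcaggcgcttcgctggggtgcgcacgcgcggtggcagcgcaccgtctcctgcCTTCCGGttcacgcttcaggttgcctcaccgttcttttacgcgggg
Ndufaf8, chr11:120098764-120098933, plus strand: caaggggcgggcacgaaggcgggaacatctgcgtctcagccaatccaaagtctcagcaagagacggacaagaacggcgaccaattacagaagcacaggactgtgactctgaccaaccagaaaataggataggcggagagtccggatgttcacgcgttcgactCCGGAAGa
Cox8b, chr7:140900447-140900616, minus strand: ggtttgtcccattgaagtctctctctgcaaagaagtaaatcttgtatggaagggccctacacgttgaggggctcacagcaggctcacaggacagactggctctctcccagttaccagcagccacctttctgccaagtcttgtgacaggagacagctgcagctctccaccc

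Complex I takes electrons from NADH in its N module, hands them to ubiquinone in its Q module and pumps protons through its membrane arm. The median difference was 0.015 over the 34 subunits, with 23 above 0, 11 below and 0 at an unadjusted p under 0.05. The 9 N-module subunits ranged from -0.024 to 0.048, and the flavin-binding Ndufv1 and the iron-sulfur subunit Ndufs1 were among them. The 4 Q-module subunits ranged from -0.0081 to 0.14 and the 21 subunits of the membrane arm from -0.11 to 0.063.

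Ndufa5, a Q-module subunit (chr6:24518662-24527690, GRCm38.p6), had the smallest p in complex I. Its levels were 13.22, 13.38 and 13.38 in GRK2+/- hearts 1 to 3 and 13.16, 13.18 and 13.23 in wild-type hearts 1 to 3. GRK2+/- hearts 2 and 3 were the highest, but heart 1 lay inside the wild-type range, and the difference was 0.14 ± 0.072 (unadjusted p = 0.0864), with both probe sets on the same side. Without GRK2+/- heart 1 it was 0.19 (unadjusted p = 0.0308). It was 0.11 without GRK2+/- heart 2 (unadjusted p = 0.223) and 0.11 without GRK2+/- heart 3 (unadjusted p = 0.216). Leaving out single wild-type hearts gave 0.12 to 0.16 (unadjusted p from 0.0967 to 0.179). The membrane-arm subunit Ndufb8 read 13.86, 13.95 and 13.93 against 13.85 in each wild-type heart, a separation by 0.01 at its nearest point. On the lower side, Ndufa8 read 13.34, 13.31 and 13.36 in GRK2+/- and 13.38, 13.37 and 13.45 in wild-type hearts. The groups of Ndufa8 did not overlap, yet the difference of -0.066 ± 0.065 was about as large as its error. The dim probe set of Ndufb4 read 4.74, 4.60 and 4.68 against 4.87, 4.68 and 4.78, with overlap.

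Complex II, succinate dehydrogenase, belongs to both the citrate cycle and the respiratory chain. Sdha, its flavoprotein, read 13.59, 13.47 and 13.51 in GRK2+/- hearts and 13.58, 13.50 and 13.49 in wild-type hearts. Sdhb, which holds the iron-sulfur clusters, read 14.41, 14.39 and 14.43 against 14.42, 14.41 and 14.45. Both catalytic subunits overlapped between the groups almost completely, with differences of 0.0023 ± 0.069 and -0.017 ± 0.063. Sdhc, a membrane anchor (chr1:171129157-171150640), read 11.78, 11.67 and 11.82 against 11.70, 11.51 and 11.66. Its difference of 0.14 ± 0.078 (unadjusted p = 0.114) came with overlap, since GRK2+/- heart 2 lay below wild-type heart 1, and it was 0.078 without wild-type heart 2. The other anchor, Sdhd, read 13.10, 13.06 and 13.08 against 13.15, 13.12 and 13.14, below every wild-type value by a small margin. Its difference was -0.054 ± 0.063, and 1 of its 2 probe sets pointed that way.

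Complex III, the cytochrome bc1 complex, ranged from -0.067 to 0.067 over 9 subunits, 4 above 0 and 5 below. Uqcrh, the hinge protein that helps dock cytochrome c, read 13.78, 13.88 and 13.87 in GRK2+/- and 13.78, 13.76 and 13.78 in wild-type hearts. Uqcr11 read 13.42, 13.52 and 13.51 against 13.46, 13.41 and 13.49. In both genes GRK2+/- heart 1 lay within the wild-type range and hearts 2 and 3 lay above it. The core protein Uqcrc1 read 13.75, 13.63 and 13.58 against 13.78, 13.66 and 13.73, and Uqcrq read 13.68, 13.69 and 13.72 against 13.76, 13.70 and 13.80, both with overlap. Cyc1, the heme-bearing cytochrome c1, differed by -0.046 ± 0.064, and the mobile carrier Cycs by 0.002 ± 0.067, from 14.43, 14.36 and 14.40 against 14.34, 14.46 and 14.39. For the Rieske protein Uqcrfs1 the groups did not overlap, at means of 13.96 and 13.99.

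Complex IV, cytochrome c oxidase, is the one complex in which several subunits come as tissue isoforms. Its 17 genes had a median difference of -0.01, with 8 above 0, 9 below, and Cox8c as the 1 at an unadjusted p under 0.05. Cox8c (chr12:102899306-102900534), the isoform of subunit 8 known from testis, read 8.27, 8.23 and 8.21 in GRK2+/- and 8.32, 8.45 and 8.51 in wild-type hearts. All 3 GRK2+/- values lay below the wild-type ones, and the difference was -0.19 ± 0.073 (unadjusted p = 0.0262, adjusted p = 0.299), with both probe sets on that side. It was -0.15 (unadjusted p = 0.1) without wild-type heart 3. Without GRK2+/- heart 2, GRK2+/- heart 3 or wild-type heart 2 the unadjusted p was 0.0577, 0.0709 and 0.0644.

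Isoform pairs were compared by their difference within each heart. Cox6a2, the form of subunit 6a made in heart and skeletal muscle, differed by -0.012 ± 0.063, and its ubiquitous counterpart Cox6a1 (chr5:115345652-115348958) by 0.11 ± 0.079. Cox6a1 read 12.80, 13.05 and 12.92 in GRK2+/- and 12.83, 12.84 and 12.76 in wild-type hearts, so that GRK2+/- hearts 2 and 3 exceeded the wild-type range and heart 1 did not. The difference was 0.052 without GRK2+/- heart 2 and 0.18 without GRK2+/- heart 1. For subunit 7a, the muscle form Cox7a1 read 13.78, 13.81 and 13.83 against 13.67, 13.74 and 13.80, a difference of 0.075 ± 0.067, and Cox7a2 differed by 0.019 ± 0.066. The ratio of Cox7a1 to Cox7a2 within each heart shifted by 0.055 on the log2 scale without overlap between the groups (SD 0.016 in GRK2+/- and 0.027 in wild-type hearts). It was the 1 of 5 isoform ratios to separate. Among the levels of single genes 19.1% did not overlap, and the share for ratios was not computed. The ratio of Cox6a2 to Cox6a1 shifted by -0.13, that of Cox4i2 to Cox4i1 by -0.082, that of Cox8b to Cox8a by -0.041 and that of Cox6b2 to Cox6b1 by -0.032, all with overlap. For subunit 8, the muscle form Cox8b differed by -0.058 ± 0.067 and Cox8a by -0.017 ± 0.071. The hypoxia-responsive Cox4i2 read 6.55, 6.61 and 6.43 against 6.53, 6.66 and 6.65, below the median gene and with overlap, and the main form Cox4i1 differed by 0.0015 ± 0.064. Cox6b2, another isoform known from testis, differed by -0.01 ± 0.076 and Cox6b1 by 0.021 ± 0.066. Ndufa4, named for complex I but now assigned to complex IV, differed by 0.021, and its paralog Ndufa4l2, known as a hypoxia target, by -0.054.

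**Figure D3:**
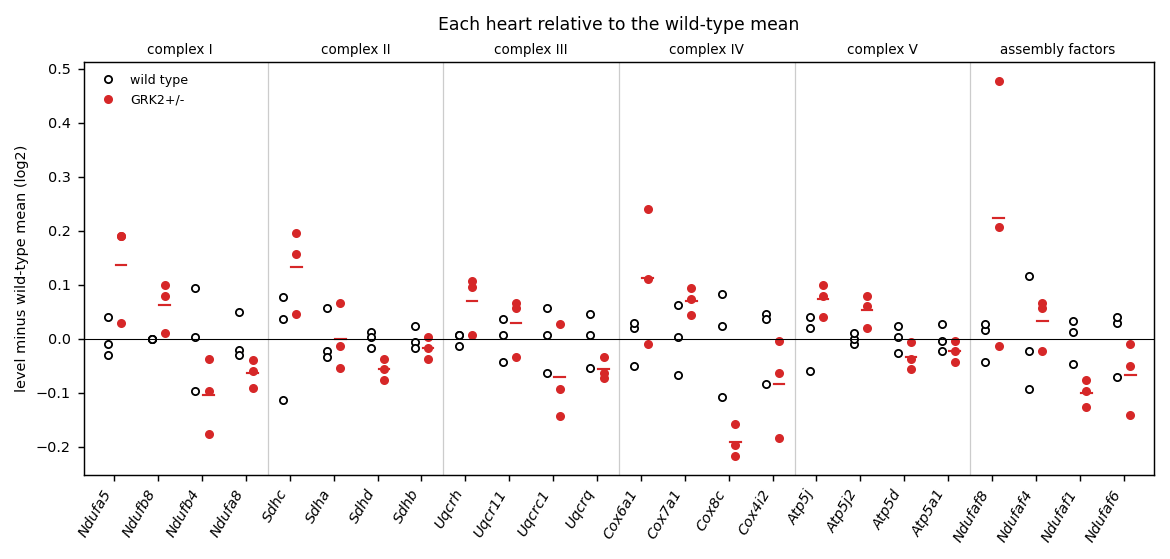
Level in each heart minus the wild-type mean of the gene (log2, vertical axis) for the 4 genes per class with the smallest p, up to 2 in each direction. Open circles are wild-type hearts, filled circles GRK2+/- hearts and short bars the GRK2+/- mean; the groups separate for Ndufb8, Ndufa8, Sdhd, Cox8c, Atp5j2 and Ndufaf1 and overlap for the rest.

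Complex V, the ATP synthase, joins the catalytic F1 head to the rotating c ring and holds it with the peripheral stalk. All 17 subunits lay between -0.035 and 0.073, with a median of 0.014, 13 above 0 and 4 below. The F1 subunits Atp5a1 and Atp5d were lowest: Atp5a1, the alpha subunit, read 14.34, 14.32 and 14.30 in GRK2+/- and 14.37, 14.32 and 14.34 in wild-type hearts. Atp5d, the delta subunit, read 13.96, 13.94 and 13.99 against 13.97, 14.00 and 14.02. These values overlapped. The 3 genes for the identical c-ring subunit, Atp5g1, Atp5g2 and Atp5g3, differed by 0.00026 ± 0.063, 0.029 ± 0.072 and 0.008 ± 0.064. Atp5j, coupling factor 6 of the peripheral stalk, read 13.62, 13.66 and 13.68 against 13.60, 13.52 and 13.62, and the membrane subunit Atp5j2 read 14.23, 14.29 and 14.27 against 14.20, 14.21 and 14.22. The latter did not overlap, at 0.054 ± 0.063. Atpif1, the inhibitor that binds F1 when the proton gradient falls and whose symbol in this annotation is outside the rule, differed by 0.014 ± 0.086. Of its 3 probe sets, 1 was on that side, and the mean over them differed by -0.083.

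Other probe sets of the members differed from the kept one in single genes. Of 184 probe sets for the 92 genes, 7 had an unadjusted p under 0.05, a smaller share than the 12.8% of all 45037 probe sets. Of these 7, 4 were higher and 3 lower, and 1 was the one kept for its gene. The other 6 were dimmer than the kept one, which the rule makes true of every probe set not kept. A probe set for Atp5o, a peripheral stalk subunit, lay at 12.11 in GRK2+/- and 11.85 in wild-type hearts, a difference of 0.26 ± 0.098, whereas the kept one for Atp5o, at 14.26 in both groups, differed by -0.0062. A probe set for Cox6c differed by 0.18 ± 0.067, one for Ndufaf4 by 0.22 ± 0.077 and one for Atp5g1, at 6.68 and 6.36, by 0.33 ± 0.11. In the other direction, dim probe sets of Ndufc2 and Atp5g2 differed by -0.21 ± 0.087 and -0.15 ± 0.065. Among the kept probe sets, 9 end in _x_at and 13 in _s_at, designs that can bind related transcripts, and processed pseudogenes of this family make such signals uncertain.

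Assembly factors build the complexes but are not part of the finished enzymes. The 8 complex I assembly factors of the rule had a median difference of -0.04, with 3 above 0 and 5 below, and 0 at an unadjusted p under 0.05, so that the subunit median lay 0.048 above theirs. Without GRK2+/- heart 1 the factors' median was 0.000051 and the gap 0.017. The assembly factors were dimmer (means from 8.8 to 11.1) and more variable, the median SD among hearts being 0.061 in GRK2+/- and 0.06 in wild-type hearts, against 0.036 and 0.037 for subunits. Relative to the wild-type mean, the average over the 8 factors was -0.089, 0.038 and 0.036 in GRK2+/- hearts 1 to 3 and 0.032, -0.041 and 0.0087 in wild-type hearts. GRK2+/- heart 1 was the lowest and the other 2 were the highest, so the groups overlapped. Over the 81 subunits the same averages were -0.012, 0.0078 and 0.025 against -0.0055, -0.021 and 0.026, again with overlap.

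Ndufaf8, a cysteine-motif factor of complex I assembly (chr11:120098934-120100424), had the largest difference of all members. It read 10.99, 11.48 and 11.21 in GRK2+/- and 10.96, 11.02 and 11.03 in wild-type hearts. Hearts 2 and 3 stood above the wild-type range, heart 1 within it, and the difference was 0.22 ± 0.11 (unadjusted p = 0.0742, adjusted p = 0.4). It rested largely on GRK2+/- heart 2, without which it was 0.094 (unadjusted p = 0.32), and without GRK2+/- heart 1 it was 0.34 (unadjusted p = 0.0062). Ndufaf1, a chaperone of the membrane arm, read 10.49, 10.54 and 10.52 against 10.65, 10.57 and 10.63, below every wild-type value, at -0.10 ± 0.065. Ndufaf6 read 9.51, 9.60 and 9.64 against 9.68, 9.58 and 9.69, and Ndufaf4 read 10.86, 10.78 and 10.87 against 10.92, 10.78 and 10.71. Both overlapped. Cox7a2l, which helps complexes III and IV associate, differed by -0.041.

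Assembly factors outside the name rule gave 45 further genes, of which 15 lay above 0 and 30 below, with a median of -0.044. Differences below 0 made up 66.7% of them and 56.5% of all genes. Their average relative to the wild-type mean was -0.099, -0.0077 and -0.031 in GRK2+/- hearts 1 to 3 and 0.016, -0.047 and 0.031 in wild-type hearts 1 to 3. The groups overlapped, and GRK2+/- heart 1 was the lowest. At an unadjusted p under 0.05 there were 6, or 13.3%, close to the 14% of all genes. By direction 1 was higher and 5 were lower, beside 6.3% and 7.7% of all genes. Uqcc1, needed to build complex III, read 10.27, 10.37 and 10.23 in GRK2+/- and 10.60, 10.51 and 10.58 in wild-type hearts, without overlap. Its difference was -0.28 ± 0.07 (unadjusted p = 0.00275, adjusted p = 0.176), with 3 of 3 probe sets on that side and -0.14 as their mean. Bcs1l, which inserts the Rieske protein into complex III, differed by -0.16 ± 0.071. Sdhaf2, which attaches the flavin to Sdha, differed by -0.21 ± 0.076, Atpaf2, a chaperone of F1, by -0.20 ± 0.067, and the complex IV factor Coa3 by -0.18 ± 0.073. In the other direction the copper chaperone Cox17 differed by 0.19 ± 0.074. In these 6 genes the groups did not overlap. Among all 45, 11 did not overlap (24.4%), 2 higher and 9 lower. The share of all genes was 19.1% (7.44% higher and 11.6% lower). Among the other complex I factors the smallest p were those of Foxred1 (-0.15 ± 0.07), Timmdc1 (-0.12 ± 0.084) and Tmem70 (-0.092 ± 0.067).

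The other genes with the smallest p in each of these lists did not pass an unadjusted p of 0.05. For complex II, Sdhaf3 differed by -0.12 ± 0.077 and Sdhaf4, which helps Sdha join Sdhb, by -0.097 ± 0.075. For complex III, Lyrm7 differed by -0.12 ± 0.10. For complex IV, the copper factor Cox19 differed by -0.20 ± 0.092, and for the ATP synthase Dmac2l differed by -0.077 ± 0.067 and Atpaf1, a chaperone of the beta subunit, by -0.063 ± 0.068.

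Among 12 genes of ubiquinone synthesis, which supplies the carrier between complexes I or II and III, the median difference was -0.043, with 4 above 0 and 8 below. Coq8b, an atypical kinase of that pathway, read 7.18, 7.11 and 7.07 against 7.41, 7.25 and 7.47 and was the 1 gene at an unadjusted p under 0.05 (-0.25 ± 0.078, adjusted p = 0.23). That is 8.33% of the list, against 14% of all genes. Coq10b and Coq4 followed, at -0.11 ± 0.08 and -0.097 ± 0.07. Of the listed subunits encoded by mitochondrial DNA, ND5 of complex I was the 1 analysed here, and it differed by -0.024 ± 0.073. Among supercomplex factors, Higd1a differed by 0.16 ± 0.092 and Stoml2 by -0.11 ± 0.074.

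**Figure D4:**
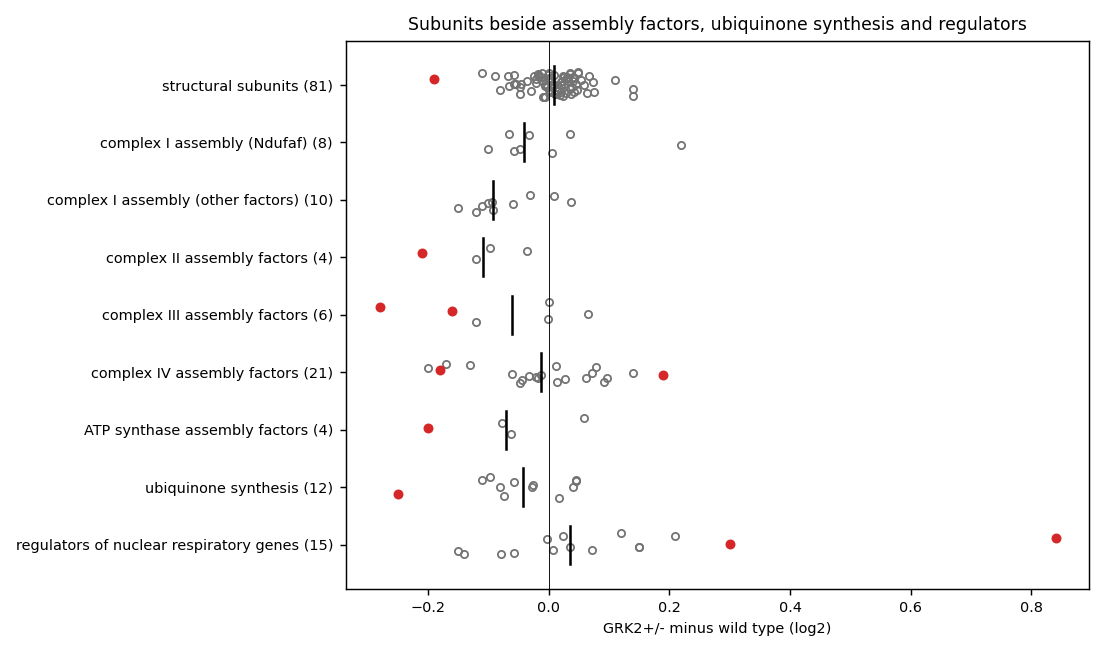
Difference between GRK2+/- and wild-type hearts (log2, horizontal axis) for the structural subunits and for assembly factors, ubiquinone synthesis genes and regulators, with the number of genes in brackets. Each circle is 1 gene, filled red where the unadjusted p was under 0.05, and black bars are medians; the 81 subunits lie between -0.19 and 0.14, and Ppargc1b lies at 0.84.

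Gene span moved with the differences over the whole table, and members are compact genes, with a median span of 7.23 kb against 20.3 kb. Other genes spanning 3 to 10 kb had a median difference of -0.037, and those over 100 kb of 0.016. The 45 members spanning 3 to 10 kb had a median of 0.024 and the 19 under 3 kb of -0.01, beside -0.047 for other genes under 3 kb. As for RNA integrity, the Actb controls read higher at the 3′ than at the 5′ end by 0.98 for the GRK2+/- group and 0.78 for controls. The same measure was 0.03 and 0.01 for Gapdh and 1.77 and 1.75 for Pcx. The part of either in the members' differences was not tested beyond taking out the trend on span, which put the median of the 81 subunits at 0.042.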

How the data were processed

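Total RNA of 6 hearts was measured on 1 Affymetrix array each. The authors deposited 1 log2 value per probe set and array, made with RMA (limma is named too) per the submitters' processing notes; its version, and whether arrays were normalised jointly, is not given in the sources used here. Of 45101 probe sets, 64 controls were left out. Probe sets with 1 gene symbol (34945) were named from the platform annotation, updated through Entrez identifiers to RefSeq (GRCm38.p6), and the brightest per gene was kept (18193 genes); 932 with several symbols, 10 of them naming a member, and 9160 unlisted ones were not named. The Grk2 transcript was not analysed here, so the genotype labels were not checked by it.

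Differences are from lmFit and eBayes of limma 3.58.1 in R 4.3.3 (two-sided) over all genes, with Benjamini-Hochberg adjustment and a threshold of 0.05. Standard errors are moderated over all genes: the median for members was 0.066, or 0.04 with a prior that followed the level. An exact permutation test of 3 against 3 hearts cannot go below 0.1, and precision is limited by the number of arrays. On simulated data, with 100 genes changed at each size, the fit recovered 93% at 1.4-fold and 100% at 2-fold, with 12 false calls. The simulated noise was independent for each gene and heart. Shifts shared by the genes of a heart and a weaker response near the top of the scale were not simulated. No p was computed over members. Named were, per complex and for assembly factors, the 2 smallest p in each direction, all members with an unadjusted p under 0.05, Sdha to Sdhd, Cyc1, Cycs, the isoform pairs, Atpif1, and the 3 smallest p of each other list; further genes whose groups separate, the 7 probe sets and other regulators were named after their values were seen. Members and lists were chosen with earlier results of these data known. Scaling, probe set choice, prior, weights, level filter, span trend, heart number as a block and leaving out each heart were tried. Whether replicate numbers pair the hearts is not given in the labels. Same-numbered hearts' deviations correlated at -0.18, -0.01 and 0.02, and those of differently numbered hearts at -0.16 to 0.16. The deviations are from means of 3 hearts, so these values cannot decide it.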

Additional observations from a re-analysis of the deposited data

How the results depend on the processing

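Under all 17 alternatives 0 members passed an adjusted p of 0.05, and the gap between the subunit and assembly factor medians (0.048) moved by less than the SD between hearts, 0.041 (0.017 to 0.07 without single hearts). The number of members at an unadjusted p under 0.05 on the higher side, 0 as reported, was 3 when each gene was read from its most variable probe set (Atp5g1, Atp5o and Ndufaf4), 2 after centring arrays on their median, 2 after the gene span trend was taken out and 2 with a prior that followed the level (Ndufa5 and Ndufaf8 in these), and 0 to 2 without single hearts, the 2 being the same pair without GRK2+/- heart 1. On the lower side, 1 as reported, it was 0 after the span trend was taken out and 0 to 1 without single hearts. Over all genes the adjusted count, 0 as reported, was 56 without GRK2+/- heart 1 and 42 with the level-following prior. After centring, the medians were 0.037 for all subunits, 0.023 for complex III, 0.019 for complex IV and 0.043 for complex V; after the span trend was taken out they were 0.042 for all subunits, 0.05 for complex I, 0.038 for complex III, 0.04 for complex IV and 0.05 for complex V. The median of all genes was 0.01 and -0.00052 in these settings. With the most variable probe set complex II had a median of 0.036 and complex III of -0.029, and with probe sets averaged per gene complex III had -0.029. Without single hearts the medians ranged from 0.00071 to 0.022 for all subunits, from -0.037 to 0.02 for complex III, and from -0.069 to 0.000051 for the complex I assembly factors. The causes were not tested. With heart number as a replicate block the counts were 0 higher and 1 lower, the call on each named member was as reported, and the unadjusted count over all genes was 2278 in place of 2546. Among 610 single differences of the 36 named members under these alternatives, 594 kept their side of an unadjusted p of 0.05, 6 lost it (all Cox8c), 10 gained it, and 47 changed sign, none of them past that threshold. Whether nearness to the top of the scale lowers the members' differences was not tested.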
